A study of Saccharomyces cerevisiae with 12 samples.

Results

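The comparison described here is that of a leu3 deletion strain of Saccharomyces cerevisiae with its reference strain in chemostats where ammonium limited growth and glucose was in excess. Its members are 6 of the 12 arrays of the series, 3 of the deletion strain and 3 of the reference strain, chosen by their titles. The other 6 arrays hold the same strains under carbon limitation with ethanol, and their values are given only where the strain effect is compared between the limitations. They also entered the fit behind every standard error and p-value, the filter on dim genes and the choice of probe set. The deletion strain, CEN.PK540-3A, was haploid, prototrophic and of mating type a, with positions 41 to 2621 of LEU3 replaced by a kanamycin resistance marker between loxP sites. The reference strain, CEN.PK113-7D, was haploid, prototrophic and of mating type a, with LEU3 intact. Both grew aerobically at 30 °C, pH 5.0 and a dilution rate of 0.10 per h on 1.0 g/l ammonium sulfate. The glucose feed was 53 g/l for the deletion strain and 59 g/l for the reference strain, set to leave about 17 g/l in the broth, so strain and feed cannot be told apart. Each genotype is represented by 1 strain. The arrays are numbered within their group, and the labels do not say whether each came from its own chemostat, so p-values measure only the spread between these samples.

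Leu3 is a zinc cluster transcription factor that binds promoters of leucine and branched-chain amino acid synthesis genes. It activates them when alpha-isopropylmalate, the product of the first step of the leucine branch, is present and can repress them when that metabolite is scarce. Amino acid synthesis genes are also under general control by Gcn4, and the use of poorer nitrogen sources is governed by GATA factors that act when preferred nitrogen is short. By its title the series concerns transcription that depends on Leu3, and the question here is which transcripts differ without Leu3 when nitrogen is scarce.

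Of 5321 genes tested, 1181 (22.2%) passed an adjusted p under 0.05 in limma, 322 of them higher (6.05%) and 859 lower (16.1%) in the deletion strain. Every count of list members below is to be set against these shares of higher and lower genes. The arrays of the strains did not overlap for 2321 genes (43.6%). Changes are log2 differences, deletion minus reference, with the standard error of the fit from 3 arrays each, and intensities under 12 were set to 12 before the fit. Among the genes that passed, 259 were higher and 622 lower by at least 1.5-fold, 100 and 158 by at least 2-fold, 17 and 11 by at least 4-fold, and 5 each way by at least 8-fold. The median log2 change over all genes was -0.11, so the excess of decreases depends on scaling: with each array centred on its median, 538 genes were higher and 485 lower, with the median change at 0.04, and after quantile normalization 484 were higher and 575 lower. The count of lower genes was 551 without deletion array 1 and 551 without reference array 1. Fitting only the nitrogen-limited arrays gave 1261 genes passing, 373 higher and 888 lower. Median changes by nuclear chromosome lay between -0.18 on XV and -0.02 on VII.

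Signal quality as read from actin moved with strain. For actin, the 3' probe set divided by the 5' probe set, a ratio that is higher when labelled transcripts are shorter, gave 1.85, 1.54 and 1.90 on the deletion arrays, against 2.45, 2.55 and 3.29 on the reference arrays. With the log2 of this ratio as a term in the model, 1065 genes passed. The same ratio for SPT15 was 3.58, 3.31 and 4.09 on the deletion arrays, against 3.42, 3.63 and 3.68 on the reference arrays. For SPT15 the strains thus overlapped. A bacterial control transcript (ThrX) read 3095 on reference array 2 and 2748 on reference array 3, while no other nitrogen-limited array exceeded 0.5, and 715 genes passed when those arrays and thus all but 1 reference array were left out. Spearman correlations across probe sets were 0.984 to 0.992 within the deletion group, 0.981 to 0.984 within the reference group and 0.959 to 0.971 between the groups. The 7 markers of a cells summed to between 6245 and 6761 on the deletion arrays and between 7681 and 9092 on the reference arrays, and the 6 markers of haploid cells to between 1205 and 1342 on the deletion arrays and between 1646 and 1755 on the reference arrays. The 4 markers of diploid or sporulating cells summed to between 70.0 and 89.0 on the deletion arrays and between 133.3 and 138.9 on the reference arrays. Of these, IME2 and SPO11 were below the floor of 12 on all 6 arrays, SPS4 read 37.2 to 43.2 in the deletion, against 104.1 to 116.7 in the reference, and IME1 averaged 29.5 ± 5.28 in the deletion and 16.1 ± 3.35 in the reference (SD, n = 3 each). The part of these markers in the results was not tested.

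**Figure D1:**
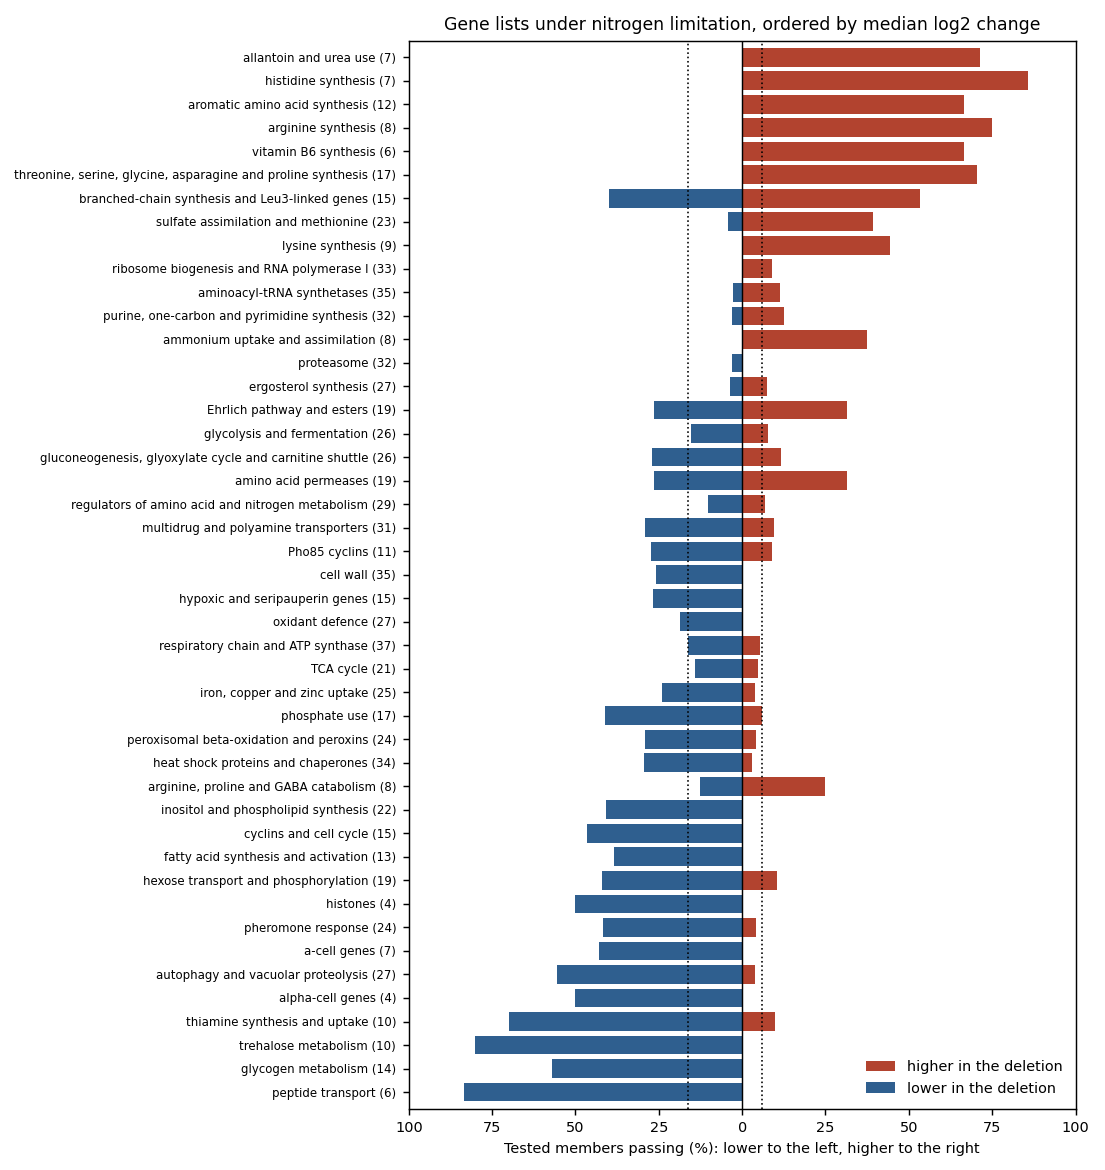
Share of the tested members of 45 gene lists that passed an adjusted p under 0.05, with members higher in the deletion strain to the right and members lower to the left, in percent; the number tested is in brackets and dotted lines mark the shares over all genes, 6.05% higher and 16.1% lower. Lists of amino acid synthesis and of allantoin use lie at the top, and peptide transport, glycogen and trehalose lie at the bottom.

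LEU3 itself came first as the check of the labels. It read 0.5, 0.4 and 0.3 on the deletion arrays, against 110.4, 96.3 and 101 on the reference arrays. The deletion strain lay below the floor of 12 on every array, which makes LEU3 at least 8.54-fold lower there (log2 change -3.10 ± 0.13, adjusted p = 4.4e-10). HMG2, the neighbour of LEU3 on chromosome XII and an HMG-CoA reductase gene of sterol synthesis, was lower as well, with 142, 158 and 155 in the deletion, against 363, 251 and 342 in the reference (log2 change -1.06 ± 0.19, adjusted p = 0.00106).

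Genes of branched-chain synthesis split into decreases and increases. Of the 15 tested among 16 on the list, 8 rose and 6 fell in the deletion strain, LEU3 among them, against 6.05% and 16.1% of all genes, and their median log2 change was 0.49. The larger decreases after LEU3 were in LEU1, LEU2 and BAT1. LEU1, isopropylmalate isomerase, had 196, 175 and 200.5 on the deletion arrays, against 682, 623 and 594 on the reference arrays. LEU2, isopropylmalate dehydrogenase, had 449.9, 505 and 445 in the deletion strain and 1599, 1348 and 1679 in the reference strain. Every deletion array was below every reference array for both genes, and they fell by 3.33-fold and 3.3-fold (log2 changes -1.74 ± 0.17 and -1.72 ± 0.14, adjusted p = 5.88e-06 and 7.19e-07). BAT1, the mitochondrial branched-chain aminotransferase, had 208, 264 and 211 on the deletion arrays, against 672, 626 and 682 on the reference arrays. It fell by 2.92-fold without overlap (log2 change -1.54 ± 0.16, adjusted p = 6.17e-06), while BAT2, the cytosolic aminotransferase, went the other way. BAT2 read 1040, 929 and 1188 in the deletion strain and 508, 404 and 416 in the reference strain, with every deletion array above every reference array, and rose 2.38-fold (log2 change 1.25 ± 0.15, adjusted p = 3.6e-05).

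LEU4 and LEU9, the isopropylmalate synthases that open the leucine branch, were higher in the deletion strain. LEU4 read 1420, 1729 and 1499 in the deletion strain and 1024, 903 and 953 in the reference strain (log2 change 0.69 ± 0.14, adjusted p = 0.0033). LEU9 read 123, 112 and 118 in the deletion strain and 48.6, 67.4 and 63.6 in the reference strain (log2 change 0.99 ± 0.17, adjusted p = 0.000987). For neither gene did the strains overlap, so the synthases at the start of the branch moved opposite to LEU1 and LEU2, which follow them. Isoleucine and valine enzymes rose too. ILV2, the catalytic subunit of acetolactate synthase, had 719, 840.2 and 820.1 in the deletion, against 423, 506 and 440.2 in the reference (log2 change 0.80 ± 0.14). ILV3, dihydroxyacid dehydratase, had 1276, 1314 and 1373 in the deletion, against 873, 866 and 888 in the reference (log2 change 0.59 ± 0.15). ILV1, threonine deaminase, had 442, 411 and 449 in the deletion, against 243, 244 and 310.5 in the reference (log2 change 0.72 ± 0.15). All 3 were higher on every deletion array, with adjusted p between 0.00114 and 0.00905.

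The remaining members were less firm. ILV6, the regulatory subunit of acetolactate synthase, had 988, 1340 and 848 in the deletion, against 702, 304 and 582 in the reference, with a log2 change of 1.06 ± 0.31 (adjusted p = 0.0215), which did not pass without deletion array 2 (0.87) or without reference array 2 (0.70). ILV5, the reductoisomerase, had 1787, 1475 and 1815 in the deletion, against 1164, 1168 and 1272 in the reference (log2 change 0.49 ± 0.16, adjusted p = 0.0423) and kept its call only when deletion array 2 was the array left out (0.44 to 0.53 without each of the others). OAC1, the mitochondrial carrier that exports isopropylmalate, had 649, 659 and 603 in the deletion, against 796, 1099 and 1019 in the reference (log2 change -0.60 ± 0.17, adjusted p = 0.0206). Its call ended without deletion array 1 or 3 (-0.61 and -0.56) and without reference array 2 or 3 (-0.50 and -0.56). BAP2, a branched-chain amino acid permease, was close to the floor in both strains, with 12.7, 14.4 and 10.0 in the deletion, against 18.7, 24.6 and 17.5 in the reference (log2 change -0.63 ± 0.18), and did not pass without deletion array 1 or 3 (-0.61 and -0.57) or reference array 2 (-0.48). GDH1, the NADP-linked glutamate dehydrogenase, read 1801, 1569 and 1817 on the deletion arrays, against 1811, 1804 and 1721 on the reference arrays, and the strains overlapped (log2 change -0.04 ± 0.13, adjusted p = 0.852). BAP3 did not pass the filter on dim genes.

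**Figure D2:**
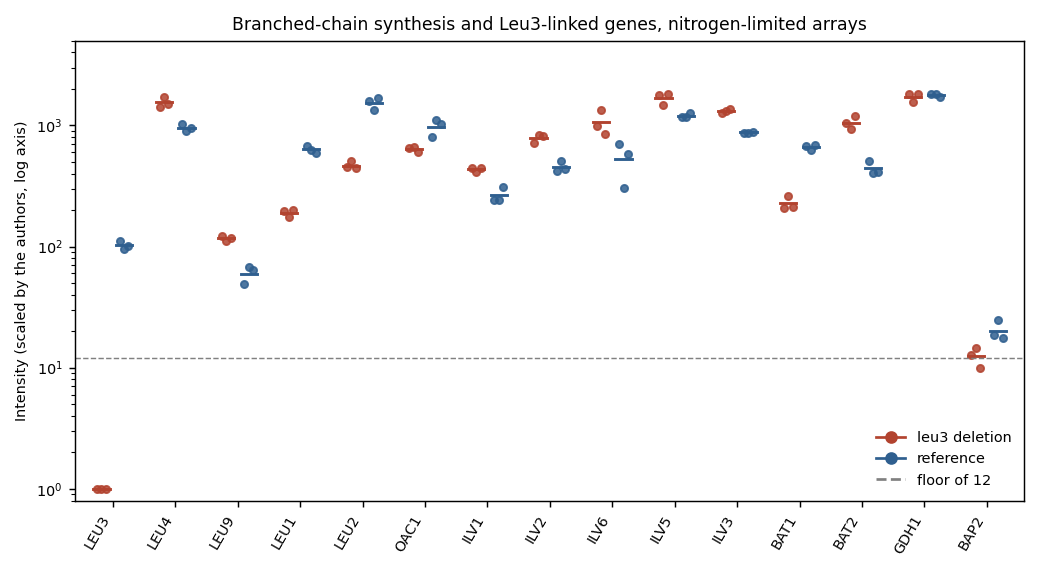
Intensity on a log axis of the 15 tested genes of branched-chain synthesis on each nitrogen-limited array, deletion (red, left) and reference (blue, right), with bars at the means of 3 arrays; values below 1 are drawn at 1. LEU1, LEU2 and BAT1 lie lower on every deletion array, LEU4, LEU9, ILV2, ILV3 and BAT2 lie higher, and GDH1 overlaps.

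Genes for the synthesis of other amino acids included many increases in the deletion strain. Across the 5 lists of histidine, lysine, aromatic, arginine and the threonine to proline group, no member fell, and the members that rose were 6 of 7, 4 of 9, 8 of 12, 6 of 8 and 12 of 17 tested, against 6.05% of all genes. Median log2 changes of these lists were 0.90, 0.32, 0.88, 0.83 and 0.63. The largest change was in ARG7, mitochondrial ornithine acetyltransferase, with 789, 856 and 829 on the deletion arrays, against 224, 194 and 199.7 on the reference arrays (log2 change 2.00 ± 0.17, adjusted p = 1.08e-06). ORT1, the carrier that takes ornithine out of mitochondria, had 376, 413 and 357 in the deletion strain and 131, 152 and 146 in the reference strain (log2 change 1.42 ± 0.14). ARG8, acetylornithine aminotransferase, and ARG2, acetylglutamate synthase, rose as well (1.17 and 0.94). The strains did not overlap for any of these arginine genes.

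Histidine and aromatic genes rose at several steps. HIS7, imidazole glycerol phosphate synthase, had 681, 793 and 738 on the deletion arrays, against 246, 259 and 265 on the reference arrays (log2 change 1.52 ± 0.15, adjusted p = 5.68e-06). HIS3, the dehydratase, read 723, 823 and 654 in the deletion, against 239.6, 241 and 245 in the reference (log2 change 1.59 ± 0.25), and both its probe sets were higher, by 1.59 and 1.73. HIS2, the histidinol phosphatase, was the member that did not pass (310.4, 332 and 280.3 in the deletion, against 268, 252 and 240.1 in the reference). ARO4 and ARO3, isozymes of the first shikimate step, rose together. ARO4 read 864, 869 and 893 in the deletion, against 279, 315 and 285 in the reference (log2 change 1.58 ± 0.15) and ARO3 read 288, 291 and 250.3 in the deletion, against 102, 101 and 110.3 in the reference (log2 change 1.40 ± 0.13). ARO1, the pentafunctional enzyme, rose by 1.11, and TRP3 and TRP4 of the tryptophan branch by 1.36 and 1.36. In the tyrosine and phenylalanine branch ARO7, chorismate mutase (-0.25), TYR1, prephenate dehydrogenase (0.15), and PHA2, prephenate dehydratase (-0.02), did not pass (adjusted p = 0.259, 0.56 and 0.956). ARO8, the aromatic aminotransferase that also serves lysine synthesis, had 2170, 2018 and 2184 in the deletion, against 876, 880.4 and 896 in the reference (log2 change 1.26 ± 0.13).

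Threonine and asparagine genes showed the next largest changes. HOM3, aspartate kinase, had 355, 284 and 333 on the deletion arrays, against 93.7, 98.1 and 112 on the reference arrays (log2 change 1.68 ± 0.15, adjusted p = 1.95e-06). ASN2, asparagine synthetase, had 1082, 1040 and 1066 in the deletion strain and 332, 345 and 357 in the reference strain (log2 change 1.63 ± 0.17, adjusted p = 6.94e-06). HOM2 rose by 1.15 and THR4, threonine synthase, by 0.88. Deletion arrays lay above reference arrays for each. Of the 23 sulfur genes tested, 9 rose and 1 fell (median 0.32). MET1, which makes siroheme for sulfite reductase, rose by 1.25 ± 0.18, and MET16, PAPS reductase, by 0.91 ± 0.19. MMP1, the S-methylmethionine permease, had 74.8, 71.1 and 84.3 in the deletion, against 22.6, 22.3 and 26.4 in the reference (log2 change 1.69 ± 0.18). MUP1, the high-affinity methionine permease, was the member that fell, with 83.2, 86.8 and 88.3 in the deletion, against 122, 170.1 and 164 in the reference (log2 change -0.80 ± 0.21), and it did not pass without reference array 2 (-0.71) or 3 (-0.74). Charging enzymes stayed nearer the background: 4 of 35 aminoacyl-tRNA synthetases rose and 1 fell, led by the cytosolic prolyl enzyme gene YHR020W (1.06), and that list had 10 higher and none lower after median centring and 2 higher without deletion array 3. In purine, one-carbon and pyrimidine synthesis 4 of 32 rose, among them IMD2, an IMP dehydrogenase gene (1.11), and ADE8 (0.72), and URA8, a CTP synthase gene, fell (-0.71). The count of 4 was 2 without any 1 array other than reference array 2.

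The transcript of GCN4, the general control activator, did not differ detectably, with 1948, 1938 and 1874 on the deletion arrays, against 2065, 1932 and 1956 on the reference arrays, and had a log2 change of -0.05 ± 0.13 (adjusted p = 0.84). Of 29 regulators of amino acid and nitrogen metabolism, 2 rose, UGA3 and URE2, and 3 fell, DAL80, GCN2 and SSY1. SSY1 (-0.83) did not pass without reference array 1 (-0.64). GCN2, the kinase that raises GCN4 translation, fell, with 26.2, 17.4 and 25.4 in the deletion, against 43.9, 40.8 and 36.8 in the reference (log2 change -0.84 ± 0.21, adjusted p = 0.00908). Counted with the Pho85 cyclins and not here, PCL5, the cyclin that marks Gcn4 for degradation, rose. It had 398, 424 and 419 in the deletion, against 287, 194 and 252 in the reference (log2 change 0.78 ± 0.19, adjusted p = 0.00839). ARO80, the activator of aromatic amino acid breakdown, was near the floor and did not pass (13.2, 12 and 12.3 in the deletion, against 19.4, 14.1 and 15.7 in the reference).

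Genes of nitrogen acquisition and use held changes in both directions. For ammonium uptake and assimilation 3 of 8 rose and none fell. MEP3, a low-affinity ammonium permease, had 344, 415 and 349 on the deletion arrays, against 147, 156 and 155 on the reference arrays (log2 change 1.27 ± 0.15, adjusted p = 2.24e-05). MEP1 had 362, 526 and 369 in the deletion, against 253, 228 and 227 in the reference (log2 change 0.81 ± 0.16), and GDH3, the second NADP-linked glutamate dehydrogenase, had 303, 398 and 376 in the deletion, against 195, 126 and 196 in the reference (log2 change 1.08 ± 0.20). These were higher on every deletion array, whereas MEP2, the high-affinity permease, had 1887, 1659 and 1916 in the deletion, against 2119, 2004 and 1952 in the reference (log2 change -0.16 ± 0.15, adjusted p = 0.505). GLN1, glutamine synthetase, and GLT1, glutamate synthase, had log2 changes of -0.10 and -0.07 (adjusted p = 0.684 and 0.744).

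Most allantoin genes tested rose. Of 7 tested, 5 were higher and none lower, with a median of 1.07, and these 5 are neighbours in a cluster on chromosome IX. DAL4, allantoin permease, had 579.5, 868 and 636 on the deletion arrays, against 263, 228 and 224 on the reference arrays (log2 change 1.52 ± 0.17, adjusted p = 2.07e-05). DAL1, allantoinase, had 511, 686 and 498 in the deletion strain and 223, 166 and 279 in the reference strain (log2 change 1.36 ± 0.21). DAL2 and DAL3, which follow in the pathway, rose by 1.31 ± 0.19 and 1.07 ± 0.16. DAL7, a malate synthase, rose by 0.67 ± 0.19, a call that ended without deletion array 1 (0.68) or 2 (0.63) and without reference array 1 (0.65) or 3 (0.60). DCG1, which lies inside the cluster and was picked out after its values were seen, rose too (log2 change 1.46 ± 0.18, adjusted p = 4.77e-05). DUR3, the urea permease, and DAL5, the allantoate permease, did not pass. DUR3 read 375, 375 and 406 in the deletion, against 419, 435 and 512 in the reference, and DAL5 read 2196, 1963 and 2743 in the deletion, against 2630, 2353 and 2327 in the reference. CAR1, arginase, had 505, 722 and 532 on the deletion arrays, against 120.2, 89.8 and 122 on the reference arrays, and was 5.28-fold higher (log2 change 2.40 ± 0.18, adjusted p = 2.4e-07). PUT1, proline oxidase, had 286, 258 and 363 in the deletion strain and 704, 597 and 689 in the reference strain, and fell (log2 change -1.15 ± 0.17, adjusted p = 0.000238), opposite to CAR1. Of 8 genes tested on the list of arginine, proline and GABA catabolism, 2 rose, 1 fell and 5 did not pass (median -0.33). The shares over all genes were 6.05% higher and 16.1% lower. PUT1 was the 1 that fell, and GAD1, given below, is not on that list.

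The GABA pathway held both directions as well. UGA4, the GABA permease, had 52.1, 65.3 and 47.0 in the deletion, against 24.3, 19.6 and 16.2 in the reference (log2 change 1.46 ± 0.21), and all 3 of its probe sets were higher. UGA3, its activator, had 341, 363 and 328 in the deletion, against 162, 164 and 196 in the reference on its brightest probe set (log2 change 0.99 ± 0.18). Of its 4 probe sets 3 were higher, by 0.99 to 2.05, and the dimmest lay below the floor on every array (0.00). GAD1, glutamate decarboxylase, which makes GABA, had 9.2, 22.5 and 17.0 in the deletion, against 85.3, 50.7 and 57.6 in the reference (log2 change -1.92 ± 0.27). Of the GATA factors, DAL80, a repressor, had 422, 362 and 433 on the deletion arrays, against 994, 637 and 857 on the reference arrays, and fell by 2.02-fold (log2 change -1.01 ± 0.19, adjusted p = 0.00168). URE2, the inhibitor of the activators Gln3 and Gat1, rose by 0.49 ± 0.14, which passed with all arrays but ended without reference array 1 (0.44) or 3 (0.49) and without any 1 deletion array (0.44 to 0.52). GLN3, GAT1 and GZF3 had log2 changes of 0.36, -0.36 and 0.23 and did not pass.

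Permeases for amino acids rose in 6 and fell in 5 of 19 tested, against 6.05% and 16.1% of all genes. The lower count was 2 after median centring and 2 or 3 without any 1 array other than deletion array 2. HIP1, the histidine permease, had 174, 185 and 189 on the deletion arrays, against 35.1, 44.2 and 33.8 on the reference arrays (log2 change 2.29 ± 0.19, adjusted p = 1.17e-06). DIP5, for acidic amino acids, had 1140, 1564 and 1304 in the deletion, against 709, 734 and 648 in the reference (log2 change 0.93 ± 0.19), and GNP1, for glutamine, had 27.9, 34.8 and 37.9 in the deletion, against 19.1, 17.0 and 14.0 in the reference (log2 change 1.01 ± 0.21). These were above the reference on all deletion arrays. AGP1, a broad-range permease, had 106, 99.5 and 102 in the deletion, against 225, 211 and 190.4 in the reference, and fell (log2 change -1.02 ± 0.19, adjusted p = 0.00129). GAP1, the general permease, had 2236, 2090 and 2288 in the deletion, against 3064, 2670 and 2960 in the reference (log2 change -0.39 ± 0.13, adjusted p = 0.0468), and kept its call only without reference array 2 among the arrays left out (-0.42 to -0.35 without the others).

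Peptide transporters gave the lowest median of all lists, -1.09, with 5 of 6 members lower, though 3 of the 6 without deletion array 1 or 3, without reference array 1 or after median centring. PTR2, which imports di- and tripeptides, had 131, 89.8 and 118 on the deletion arrays, against 472, 501 and 541 on the reference arrays. OPT2, of the oligopeptide transporter family, had 282, 340.3 and 448 in the deletion strain and 1509, 1475 and 1296 in the reference strain. OPT1, an oligopeptide and glutathione transporter, had 113, 95.1 and 150.2 in the deletion strain and 404, 312 and 384 in the reference strain. The strains were far apart for all 3, which fell by 4.53-fold, 4.06-fold and 3.11-fold (adjusted p = 1.3e-06, 5.97e-07 and 6.54e-06). CUP9, the repressor of PTR2, and UBR1, the ubiquitin ligase that degrades Cup9, were the weak members. CUP9 had 211, 218 and 210.0 in the deletion, against 331, 244 and 318 in the reference (log2 change -0.47 ± 0.15) and UBR1 had 159, 156 and 156 in the deletion, against 257, 209.9 and 221 in the reference (log2 change -0.54 ± 0.15). Neither call survived the loss of deletion array 1 (-0.46 for CUP9, -0.55 for UBR1), deletion array 3 (-0.46 and -0.54) or reference array 1 (-0.39 and -0.46), and CUP9 also failed without deletion array 2 (-0.49) or reference array 3 (-0.42).

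The Ehrlich pathway turns amino acids into fusel alcohols by transamination, decarboxylation and reduction. Of 19 members tested, 6 rose and 5 fell, against 6.05% and 16.1% of all genes, with a median of 0.01. ARO9, the second aromatic aminotransferase, had 111, 114 and 113 on the deletion arrays, against 13.3, 25.3 and 20.1 on the reference arrays (log2 change 2.57 ± 0.22, adjusted p = 1.15e-06). ARO10, phenylpyruvate decarboxylase, had 70.0, 82.3 and 67.5 in the deletion strain and 12, 7.0 and 11.9 in the reference strain. The reference arrays were at or below the floor, so ARO10 was at least 6.08-fold higher in the deletion strain (log2 change 2.60 ± 0.14, adjusted p = 8.91e-09). The pyruvate decarboxylase isozymes PDC5 and PDC6 fell. PDC5 had 989.5, 567 and 825 in the deletion, against 1776, 1739 and 1611 in the reference (log2 change -1.14 ± 0.18) and PDC6 had 41.0, 56.3 and 39.7 in the deletion, against 151, 137 and 195 in the reference (log2 change -1.82 ± 0.20), whereas PDC1, the main isozyme, had 2517, 2011 and 2690 in the deletion, against 2639, 2288 and 2348 in the reference (log2 change -0.02 ± 0.14, adjusted p = 0.952). ADH5, a minor alcohol dehydrogenase, had 379, 494 and 369 in the deletion, against 116, 134 and 119 in the reference, and rose (log2 change 1.74 ± 0.18, adjusted p = 1.1e-05), and ADH1 did not pass (-0.14). EEB1, an acyltransferase that makes ethyl esters, had 315, 314 and 348 in the deletion, against 1076, 1046 and 975 in the reference, and fell (log2 change -1.66 ± 0.19, adjusted p = 1.7e-05), and the other ester genes ATF1 (-0.33), ATF2 (0.39) and EHT1 (-0.12) did not pass.

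Among the 20 largest increases, the first was QDR2, a plasma membrane drug exporter of the major facilitator family. It read 498, 516 and 492 on the deletion arrays, against 13.5, 13.8 and 12 on the reference arrays. The reference values sat at or just above the floor, and the change was 38.4-fold (log2 change 5.26 ± 0.14, adjusted p = 8.09e-13). QDR1, its close relative, had 12.2, 15.8 and 10.5 in the deletion, against 16.2, 25.6 and 20.4 in the reference (log2 change -0.62 ± 0.19, adjusted p = 0.0247), a call that ended without deletion array 1 (-0.57) or 3 (-0.55) and without reference array 2 (-0.46) or 3 (-0.62). Next came SNO1 and SNZ1, adjacent genes on chromosome XIII for the glutaminase and synthase subunits that make pyridoxal phosphate. SNO1 read 333, 453 and 337 in the deletion strain and 12.6, 12.6 and 14.8 in the reference strain, and SNZ1 read 622, 664 and 639.8 in the deletion strain and 59.2, 49.1 and 53.5 in the reference strain. They were 27.9-fold and 11.9-fold higher (adjusted p = 8.42e-10 and 1.16e-10). Of 6 vitamin B6 genes tested out of 10 listed, 4 rose and none fell, with PDX3, the oxidase, at 0.74 ± 0.14. TPN1, the pyridoxine importer, did not pass (401, 448 and 333 in the deletion, against 405, 340.5 and 392 in the reference).

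TMT1, a methyltransferase for trans-aconitate and isopropylmalate, had 308, 339 and 312 on the deletion arrays, against 36.0, 37.5 and 38.1 on the reference arrays, and was 8.59-fold higher (log2 change 3.10 ± 0.15, adjusted p = 1.85e-09). ARO5 (YGL117W) had 468, 377 and 398 in the deletion strain and 40.6, 45.9 and 45.8 in the reference strain (log2 change 3.23 ± 0.19), and FMP23, a mitochondrial protein gene, had 268, 312 and 248 in the deletion strain and 43.6, 39.0 and 42.4 in the reference strain (log2 change 2.72 ± 0.19). No reference array came within 5-fold of a deletion array for these 3 genes. ALD5, a mitochondrial aldehyde dehydrogenase, had 876, 868 and 898 in the deletion, against 280.1, 191 and 216 in the reference (log2 change 1.96 ± 0.16). HXT2, a glucose transporter, had 279, 295 and 368 in the deletion, against 112, 95.4 and 69.1 in the reference (log2 change 1.79 ± 0.22). ATG15, a vacuolar lipase, had 45.7, 99.4 and 56.1 in the deletion, against 12.2, 21.4 and 6.9 in the reference on its brightest probe set (log2 change 2.12 ± 0.28), and its other 2 probe sets changed by 0.65 and 1.17. BSC5 and YNR068C, neighbours on chromosome XIV, rose by at least 2.29 and by 1.75, and ATG41, an autophagy gene, by 2.17. The uncharacterized YAR068W rose by 2.67, YDR541C by 2.05, and SPG4, a stationary phase gene, by at least 2.32.

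**Figure D3:**
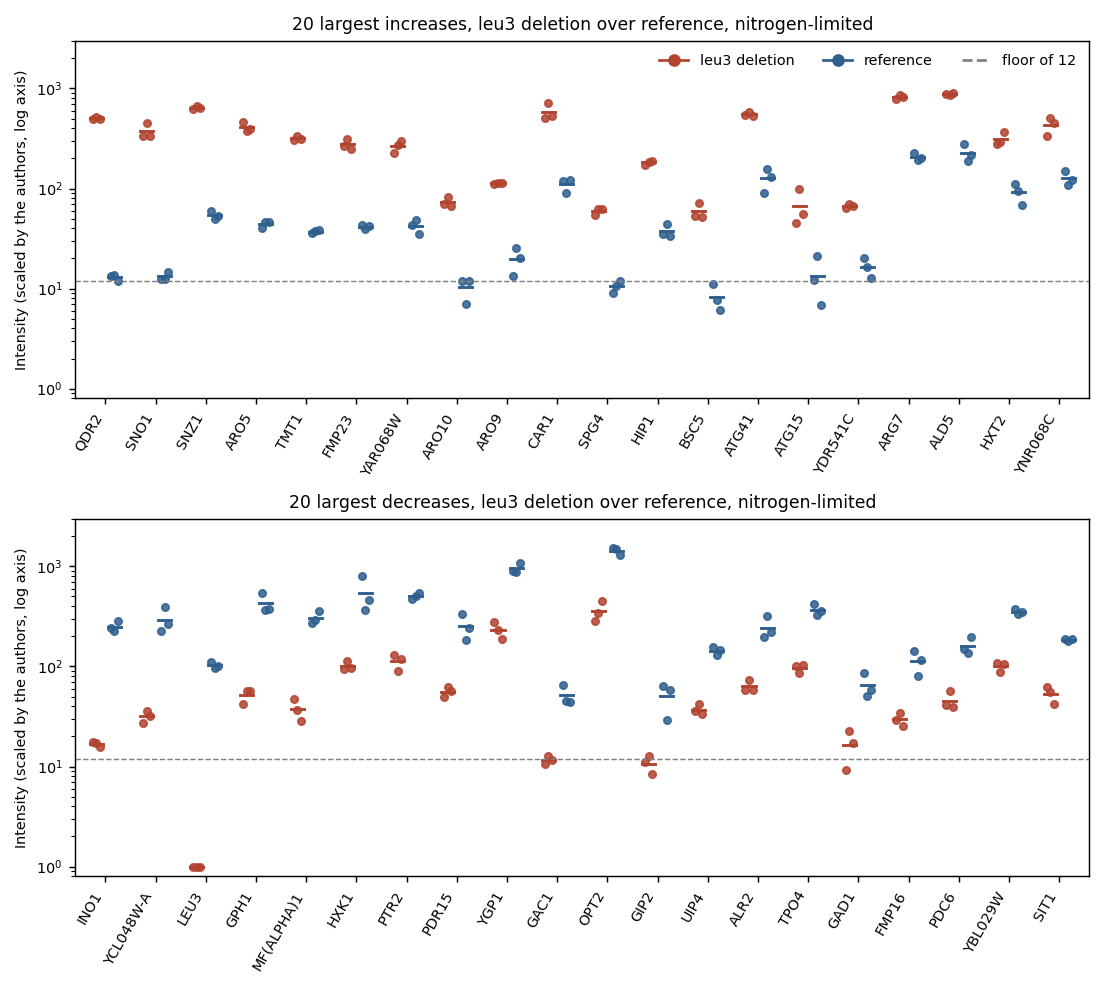
Intensity on a log axis of the 20 genes with the largest increase (upper panel) and the 20 with the largest decrease (lower panel) on each nitrogen-limited array, deletion (red, left) and reference (blue, right), with bars at the means of 3 arrays; values below 1 are drawn at 1. QDR2 and SNO1 sit near the floor of 12 on the reference arrays, and INO1, GAC1 and GIP2 sit near it on the deletion arrays.

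Of 31 transporters of drugs and polyamines tested, 3 rose, QDR2 among them, and 9 fell, against 6.05% and 16.1% of all genes, and their median of -0.12 was close to the -0.11 of all genes. PDR15, an ABC transporter, had 49.8, 62.0 and 56.3 on the deletion arrays, against 338, 186 and 240.4 on the reference arrays (log2 change -2.15 ± 0.20, adjusted p = 3.12e-06). TPO4, a polyamine exporter, had 102, 85.4 and 104 in the deletion strain and 419, 326 and 360.4 in the reference strain (log2 change -1.92 ± 0.15, adjusted p = 7.09e-07). RSB1, a long-chain base exporter, had 22.2, 24.6 and 20.4 in the deletion, against 73.8, 48.5 and 77.1 in the reference (log2 change -1.54 ± 0.17). ATR1, an exporter of aminotriazole, rose, with 744, 799 and 773 in the deletion, against 281, 324 and 280.3 in the reference (log2 change 1.39 ± 0.17). After median centring the same list held 6 higher and 7 lower.

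Thiamine genes were lower in 7 of 10 tested and higher in 1, with a median of -0.61. THI2, the activator, had 18.8, 24.9 and 16.1 on the deletion arrays, against 48.5, 46.7 and 58.8 on the reference arrays (log2 change -1.38 ± 0.18, adjusted p = 6e-05). PHO3, the phosphatase that frees thiamine for uptake, had 107, 85.6 and 82.5 in the deletion strain and 174, 219.6 and 239.5 in the reference strain (log2 change -1.20 ± 0.19, adjusted p = 0.000342). THI20, a phosphomethylpyrimidine kinase gene, had 143, 114 and 97.5 in the deletion, against 226, 225 and 305 in the reference (log2 change -1.10 ± 0.18). Strains did not overlap for these. THI4, which makes the thiazole, was the exception, with 94.3, 123 and 93.6 in the deletion, against 54.1, 69.0 and 72.4 in the reference (log2 change 0.67 ± 0.16). The count of 7 was 4 without deletion array 3 and 4 without reference array 3, and 3 with reference array 1 as the only reference.

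Inositol and phospholipid genes included large decreases. INO1, inositol phosphate synthase, showed the largest fitted decrease of all genes. It had 17.6, 17.1 and 15.7 on the deletion arrays, against 243, 224 and 281 on the reference arrays, and was 14.8-fold lower (log2 change -3.89 ± 0.15, adjusted p = 1.16e-10). Of 22 inositol and phospholipid genes, 9 fell and none rose (median -0.36), with 5 lower after median centring or without deletion array 1. OPI3, the last methyltransferase of phosphatidylcholine synthesis, had 582, 804 and 776 in the deletion strain and 1652, 1322 and 1503 in the reference strain (log2 change -1.06 ± 0.16, adjusted p = 0.000328). CKI1, choline kinase, and EKI1, ethanolamine kinase, changed by -0.85 ± 0.16 and -0.85 ± 0.17. The activator pair differed in call: INO4 had 109.8, 106 and 102 in the deletion, against 144, 143 and 145 in the reference (log2 change -0.44 ± 0.13, adjusted p = 0.0206) and INO2 had 43.2, 54.9 and 45.6 in the deletion, against 34.2, 56.2 and 41.6 in the reference (log2 change 0.15 ± 0.32, adjusted p = 0.793). The call of INO4 ended without deletion array 1 (-0.47) or 3 (-0.41) and without reference array 1 (-0.44) or 3 (-0.44).

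Of 13 genes of fatty acid synthesis and activation, 5 fell and none rose (median -0.39), with 3 lower without deletion array 2, without reference array 1 or after median centring, and 1 higher and 3 lower with the mean of the probe sets. ACC1, acetyl-CoA carboxylase, had 815, 978 and 965 on the deletion arrays, against 1875, 1656 and 1667 on the reference arrays (log2 change -0.92 ± 0.16, adjusted p = 0.000755). FAS1 and FAS2 encode the subunits of fatty acid synthase. On their brightest probe sets FAS1 had 378, 327 and 457 in the deletion, against 892, 821 and 834 in the reference (log2 change -1.14 ± 0.16), and FAS2 had 628, 650.0 and 559.9 in the deletion, against 1157, 1006 and 1176 in the reference (log2 change -0.86 ± 0.17). Their other probe sets did not go the same way. Of 8 for FAS1, 2 were lower and 6 higher, from -1.14 to 1.55, and of 8 for FAS2, 2 were lower and 5 higher, from -0.86 to 2.22. Averaged over probe sets the changes turned to 0.52 and 0.50. The actin ratio given above differs between the strains in the same comparison, and its part in these probe sets was not tested. The direction of FAS1 and FAS2 is therefore uncertain. The other 2 of the 5 were the acyl-CoA synthetase genes FAA1 (-0.69), which did not pass without deletion array 2 (-0.58) or reference array 1 (-0.55), and FAA3 (-0.73), which kept its call only without deletion array 3 among the arrays left out (-0.79 to -0.48 without the others). Sterol genes were mostly not called, with 2 of 27 higher and 1 lower.

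Storage carbohydrate genes were lower. For glycogen 8 of 14 fell and none rose (median -0.86), and for trehalose 8 of 10 fell and none rose (median -0.78), against 16.1% lower among all genes. GPH1, glycogen phosphorylase, had 42.2, 57.0 and 56.5 on the deletion arrays, against 548, 368 and 379 on the reference arrays (log2 change -3.05 ± 0.34, adjusted p = 1.73e-05). GLC3, the branching enzyme, had 121, 104 and 90.7 in the deletion strain and 509.7, 227 and 318 in the reference strain (log2 change -1.67 ± 0.26, adjusted p = 0.000304). GAC1, PIG2 and GIP2, which direct the phosphatase Glc7 to glycogen metabolism, all passed. GAC1 had 10.5, 12.7 and 11.6 in the deletion, against 65.9, 44.8 and 44.1 in the reference, and GIP2 had 11, 12.7 and 8.4 in the deletion, against 64.2, 29.4 and 57.9 in the reference. Each lay under the floor on 2 deletion arrays, which entered the fit at 12 (log2 changes -2.05 ± 0.22 and -1.97 ± 0.23). PIG2 changed by -1.54 ± 0.23. In the trehalose list TSL1, a synthase subunit, had 76.3, 118 and 88.9 on the deletion arrays, against 434, 218 and 316 on the reference arrays (log2 change -1.74 ± 0.26, adjusted p = 0.000248). PGM2, phosphoglucomutase, had 59.1, 71.5 and 58.3 in the deletion, against 295, 127 and 221 in the reference (log2 change -1.69 ± 0.28). Trehalases fell too, with -0.83 ± 0.18 for NTH1 and -0.69 ± 0.14 for NTH2, so genes of synthesis and of breakdown moved the same way.

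Reference array 1 was the highest of the reference arrays for 10 of 14 glycogen genes and 9 of 10 trehalose genes, against 35.9% of all genes. It also read 822 on a 25S ribosomal RNA probe set, against 47.8 and 51.6 on the other reference arrays and 29.8, 92.7 and 14.4 on the deletion arrays. Another 25S probe set was highest on deletion array 2, at 836.3. There reference array 1 read 582.9, the other reference arrays 66.0 and 109.3, and deletion arrays 1 and 3 142.8 and 142.0. The part of reference array 1 in these results was not tested. Without that array 6 glycogen and 7 trehalose genes still fell, with medians of -0.75 and -0.66. With it as the only reference array, 9 and 8 fell, with medians of -1.15 and -1.04, and the change of GLC3 was -2.28.

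**Figure D4:**
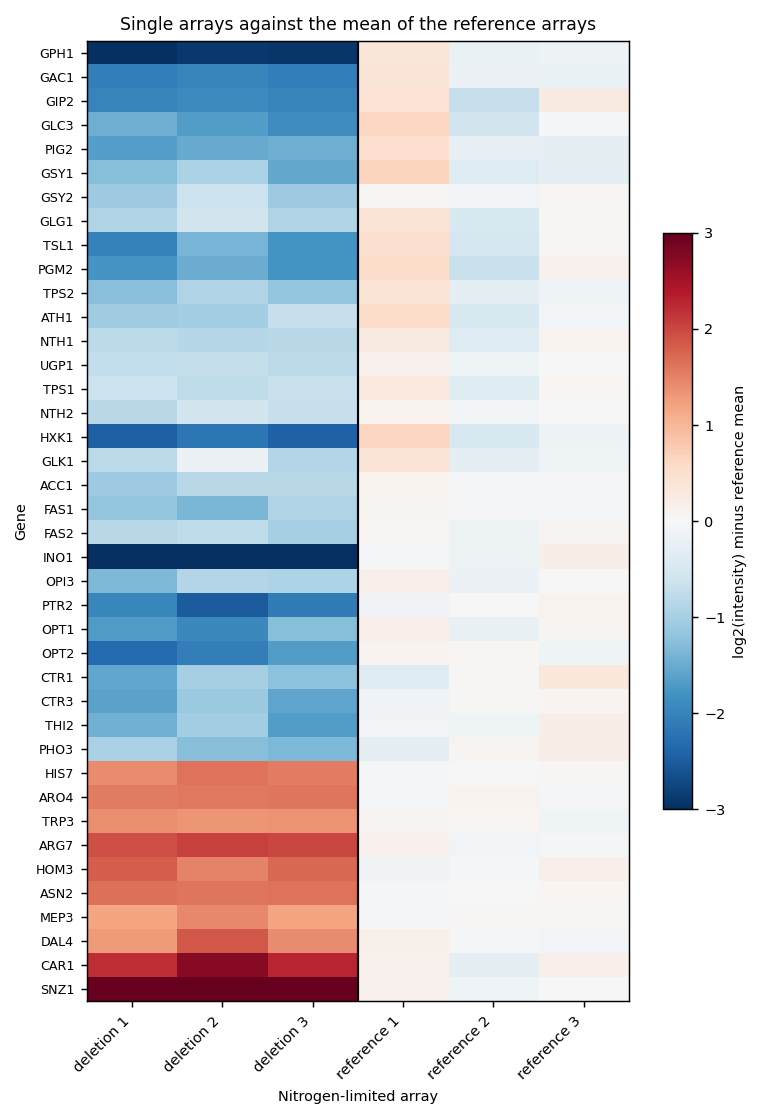
log2 intensity (floor 12) of 40 genes on each nitrogen-limited array minus the mean of the 3 reference arrays, with deletion arrays on the left and reference arrays on the right and colours ending at -3 and 3. Glycogen and trehalose genes at the top are blue on the deletion arrays and pale red in most rows of reference array 1, whereas the amino acid, ammonium, allantoin and vitamin B6 genes at the bottom are red on all deletion arrays.

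Hexose transport and phosphorylation had 2 of 19 higher and 8 lower, with 4 or 5 lower without deletion array 1, reference array 1 or reference array 3. HXT1, the low-affinity glucose transporter, had 762, 836 and 676 on the deletion arrays, against 301, 317 and 322 on the reference arrays (log2 change 1.27 ± 0.13, adjusted p = 5.88e-06). HXT6 and HXT7, high-affinity transporters with nearly identical sequences that probes may not separate, changed by -1.10 ± 0.23 and -0.86 ± 0.17. HXT3, a low-affinity transporter, had 2315, 2070 and 2247 in the deletion, against 2472, 2198 and 2409 in the reference, and did not pass. HXK1, hexokinase 1, had 94.4, 115 and 95.4 in the deletion strain and 803, 367 and 459 in the reference strain (log2 change -2.34 ± 0.23, adjusted p = 4.75e-06), with the highest value again on reference array 1 and a change of -2.99 against that array alone. RGT1, the repressor of HXT genes, changed by -1.20 ± 0.23.

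In central carbon metabolism most genes were not called. Of 26 genes of glycolysis and fermentation 2 rose and 4 fell. GPP1, a glycerol phosphatase, had 766, 763 and 811 in the deletion, against 348, 285 and 401 in the reference (log2 change 1.19 ± 0.17), and GPM2, a minor phosphoglycerate mutase homologue, had 42.9, 44.5 and 41.7 in the deletion, against 133, 126 and 118 in the reference (log2 change -1.54 ± 0.24). Of 26 genes of gluconeogenesis, the glyoxylate cycle and the carnitine shuttle, 3 rose and 7 fell, and after median centring 7 went each way. CAT2, carnitine acetyltransferase, had 25.5, 27.8 and 26.4 in the deletion, against 124, 56.6 and 79.5 in the reference (log2 change -1.63 ± 0.23, and -2.22 against reference array 1 alone), while YAT2, another carnitine acetyltransferase, had 106, 110.5 and 109 in the deletion, against 46.7, 48.6 and 66.5 in the reference (log2 change 1.03 ± 0.16). ALD4 and ALD2 changed by -0.83 ± 0.17 and -1.20 ± 0.19, opposite to ALD5. In the TCA cycle 1 of 21 rose, IDP1, the mitochondrial NADP-linked isocitrate dehydrogenase (log2 change 0.85 ± 0.15, adjusted p = 0.00114), and 3 fell, or 1 without reference array 1. In the respiratory chain 6 of 37 fell, a share near that of all genes, and 2 rose, or 1 without deletion array 1 or 2 or reference array 1 or 2, with GUT2, the glycerol phosphate dehydrogenase, at -1.20 ± 0.17 and CYB2, lactate dehydrogenase, at -1.02 ± 0.17. Of 24 peroxisomal genes 7 fell, against 16.1% of all genes, with a median of -0.25. PEX21 was the 1 that rose (0.78), though not without deletion array 2 (0.62) or reference array 1 (0.65). POT1, the thiolase of beta-oxidation, had 18.0, 23.1 and 18.4 in the deletion, against 64.2, 71.0 and 60.6 in the reference (log2 change -1.72 ± 0.18), and SPS19 and TES1 changed by -1.04 ± 0.14 and -1.05 ± 0.21.

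Heat shock genes and genes of vacuolar proteolysis included decreases. Among 34 heat shock and general stress genes 10 fell (median -0.28), against 16.1% of all genes. HSP78, a mitochondrial chaperone, was the 1 that rose (0.54), and it kept its call only without reference array 1 among the arrays left out (0.36 to 0.62 without the others). HSP26, a small heat shock protein, had 81.1, 80.0 and 67.8 on the deletion arrays, against 238, 191 and 239 on the reference arrays (log2 change -1.54 ± 0.14, adjusted p = 3.12e-06). DDR2 had 409, 476 and 402 in the deletion, against 1197, 1238 and 1430 in the reference (log2 change -1.59 ± 0.17), and HSP12 had 856, 890.4 and 1073 in the deletion, against 2456, 2303 and 2071 in the reference (log2 change -1.28 ± 0.20). YGP1, a secreted glycoprotein, had 277, 229.7 and 188 in the deletion, against 896, 889 and 1081 in the reference (log2 change -2.05 ± 0.22). Of 27 oxidant defence genes 5 fell, a share near that of all genes, and 2 or 3 did so without any 1 array other than deletion array 2, with GPX1, a glutathione peroxidase, at -1.37 ± 0.19. For autophagy and vacuolar proteolysis 15 of 27 fell and 1, ATG15, rose (median -0.54). ATG15 did not pass with a floor of 50 (0.39). ATG41, an autophagy gene that is not on this list, rose as well (2.17). The lower count was 8 or 9 without deletion array 1 or 3 or reference array 1, 9 with the actin ratio as a term and 7 after median centring. PRC1, carboxypeptidase Y, had 414, 337 and 367 in the deletion strain and 824, 806 and 672 in the reference strain (log2 change -1.04 ± 0.18, adjusted p = 0.000921), PRB1, proteinase B, changed by -0.73 ± 0.16 and ATG19, a receptor of selective autophagy, by -0.90 ± 0.15. Of 32 proteasome genes 1 fell and none rose (median 0.02).

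Phosphate, metal and cell wall genes held some decreases, against 16.1% lower among all genes. Their list medians were -0.23, -0.22 and -0.15, against -0.11 for all genes. Of 17 phosphate genes 7 fell and 1, the phosphate transporter PHO89, rose (0.62), with its call kept only without deletion array 3 or reference array 2 among the arrays left out (0.54 to 0.61 without the others). VTC1 to VTC4, the subunits of the vacuolar polyphosphate synthase, all passed with log2 changes of -0.64, -0.59, -0.66 and -0.45. VTC2 did not pass without deletion array 2 (-0.47) or reference array 1 (-0.56), and VTC3 without deletion array 3 (-0.61) or reference array 2 (-0.57). VTC4 kept its call only when deletion array 2 was the array left out, and without any other its change lay between -0.51 and -0.33. Of 25 metal uptake genes 6 fell and 1, the siderophore transporter ENB1, rose (0.69), though not without deletion array 2 (0.52) or reference array 1 (0.63) or 2 (0.64). Of the copper transporters, CTR1 had 119, 177 and 149 in the deletion, against 276, 359.7 and 439 in the reference (log2 change -1.27 ± 0.21), and CTR3 had 143, 203 and 147 in the deletion, against 406, 449 and 462 in the reference (log2 change -1.43 ± 0.16). MAC1, their activator, had 122, 105 and 92.8 in the deletion, against 229.6, 176 and 248 in the reference (log2 change -1.03 ± 0.24). Deletion arrays were lower throughout. SIT1, a siderophore transporter, had 62.4, 55.1 and 42.3 in the deletion, against 189.6, 178 and 188 in the reference (log2 change -1.82 ± 0.18). ALR2, a magnesium transporter homologue outside the lists, had 58.2, 73.3 and 58.0 in the deletion, against 196, 318 and 219.6 in the reference (log2 change -1.93 ± 0.22). For the cell wall 9 of 35 fell and none rose, with FLO11, the flocculin, at -1.05. GSC2, a glucan synthase, was counted as lower from its brightest probe set (-0.99), but its 7 probe sets ran from -0.99 to 0.82 and their mean of -0.07 did not pass, so its direction is uncertain.

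Several mating genes were lower, and both strains are labelled as mating type a. MF(ALPHA)1, which encodes alpha-factor, had 47.4, 36.7 and 28.8 on the deletion arrays, against 270.0, 289.9 and 357 on the reference arrays, and was 8.23-fold lower (log2 change -3.04 ± 0.19, adjusted p = 3.31e-08). In a population, fewer cells of a kind and less RNA per cell cannot be told apart. The 5 markers of alpha cells summed to between 146.7 and 209.8 on the deletion arrays and between 457 and 542 on the reference arrays, a gap carried mainly by MF(ALPHA)1. SAG1, alpha-agglutinin, had 71.7, 149 and 104 in the deletion, against 140.4, 127 and 146 in the reference, and the strains overlapped (log2 change -0.41 ± 0.21, adjusted p = 0.186). STE3, the a-factor receptor, had 11.2, 11.3 and 9.1 in the deletion, against 19.6, 19.6 and 20.7 in the reference. MF(ALPHA)2 was below the floor on all 6 arrays, and AFB1 had 8.3, 6.5 and 7.3 in the deletion, against 21.8, 13.0 and 13.5 in the reference. Of the 4 alpha-cell genes tested 2 fell, and of 7 a-cell genes 3 fell, a count of 0 to 1 after median centring or without deletion array 1, deletion array 2 or reference array 3. MFA1 had 3166, 2997 and 3059 in the deletion, against 3244, 3831 and 3414 in the reference (log2 change -0.18 ± 0.20, adjusted p = 0.56). In the pheromone response 10 of 24 fell and 1, PRM4, rose (median -0.46), the rise of 0.51 not passing without deletion array 2 (0.38) or reference array 3 (0.49). PRM1, a fusion factor, had 21.0, 34.9 and 34.4 in the deletion, against 75.0, 76.4 and 83.6 in the reference (log2 change -1.42 ± 0.25), AGA1, an agglutinin anchor, had 107, 95.7 and 85.8 in the deletion, against 243, 191 and 284 in the reference (log2 change -1.30 ± 0.18) and FUS1 had 32.8, 28.9 and 30.4 in the deletion, against 66.7, 61.4 and 97.0 in the reference (log2 change -1.26 ± 0.21).

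Cell cycle genes included decreases, with 7 of 15 cyclins and regulators lower and none higher (median -0.39), and 4 lower without deletion array 1, reference array 1 or reference array 3. PCL1, a G1 cyclin of Pho85, had 89.6, 92.4 and 87.3 on the deletion arrays, against 243, 213 and 319 on the reference arrays (log2 change -1.50 ± 0.18, adjusted p = 2.78e-05). CLB3, a mitotic cyclin, had 72.9, 98.3 and 105 in the deletion, against 192, 167 and 217 in the reference (log2 change -1.07 ± 0.17) and CLN1 changed by -0.67 ± 0.14. Among 11 Pho85 cyclins 3 fell and PCL5 rose. Of 4 histone genes tested out of 10 listed, HHO1, the linker histone (-0.91), and HTZ1 (-0.54) fell, and HTZ1 did not pass without deletion array 1 (-0.49) or 3 (-0.46). In ribosome biogenesis 3 of 33 rose and none fell, but 6 rose after median centring, 1 without any 1 deletion array or without reference array 3, and none with the actin ratio as a term or without reference array 1. Of 15 hypoxic and seripauperin genes 4 fell, COX5B (-0.88) and CYC7 (-0.90) among them, against 16.1% of all genes, and the list median was -0.16.

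Few genes were above the floor in 1 strain alone: 13 genes exceeded 12 on every deletion array and lay below it on every reference array, and 33 did the reverse, of which 8 and 17 passed the test. Those named here all passed. The largest bound of the first kind was that of BSC5, at least 4.87-fold higher, with 53.5, 71.4 and 52.4 in the deletion, against 11.1, 7.7 and 6.1 in the reference. STL1, a glycerol importer, had 32.7, 25.8 and 37.7 in the deletion, against 3.8, 3.5 and 0.4 in the reference, and WHI5, a repressor of G1 transcription, had 24.1, 30.4 and 24.0 in the deletion, against 4.2, 6.6 and 3.3 in the reference, so they were at least 2.64-fold and 2.17-fold higher. RIM9, of the pH response, and YJR154W were at least 1.90-fold and 1.96-fold higher. Of the second kind, LEU3 was followed by YOR186W, FCY21, a purine-cytosine permease homologue, PRR2, a protein kinase gene, YMR206W and YOL153C, which were at least 2.61-fold, 2.48-fold, 2.38-fold, 2.35-fold and 2.32-fold lower. MBR1 and GIS1, a factor of gene expression under nutrient limitation, were at least 1.79-fold and 1.75-fold lower.

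The same strains under carbon limitation with ethanol gave 926 genes higher (17.4%) and 568 lower (10.7%), and the strain effect differed between the limitations for 976 genes (18.3%), or 417 with the actin ratio as a term. QDR2 read 38.9, 42.0 and 39.0 on the deletion arrays, against 46.2, 38.2 and 36.0 on the reference arrays under carbon limitation (log2 change 0.00, adjusted p = 1), and the difference between limitations was 5.26 ± 0.19 on the log2 scale (adjusted p = 1.43e-10). INO1 averaged 927 in the deletion strain and 1130 in the reference strain there (difference -3.62 ± 0.21, adjusted p = 8.01e-08). HMG2, the neighbour of LEU3, was lower there as well (log2 change -0.95 ± 0.19, adjusted p = 0.00245). Its difference between the limitations did not pass (-0.10 ± 0.27, adjusted p = 0.822). For the late leucine genes, under carbon limitation the strain effects were -1.31 for LEU1, -1.68 for LEU2 and -1.42 for BAT1, all passing, and the differences from the values under nitrogen limitation did not pass (adjusted p = 0.237, 0.902 and 0.717). LEU4, ILV2, ILV3 and ILV5 had log2 changes of -0.67, -0.74, -0.58 and -0.78 under carbon limitation, all passing there, and differed between the limitations (adjusted p = 0.000571, 0.000274, 0.00196 and 0.00244). Under carbon limitation 5 of 7 histidine, 2 of 9 lysine, 5 of 12 aromatic, 3 of 8 arginine and 2 of 17 threonine group genes were higher. In the same order 0, 2, 0, 1 and 2 were lower there, and 0, 5, 5, 6 and 5 differed between the limitations. MF(ALPHA)1 averaged 33.7 in the deletion strain and 21.8 in the reference strain under carbon limitation, where it rose (0.64). The actin ratio was 1.91, 1.87 and 1.71 in the carbon-limited deletion group, against 3.31, 9.27 and 13.98 in the carbon-limited reference group, a wider gap than under nitrogen limitation.

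**Figure D5:**
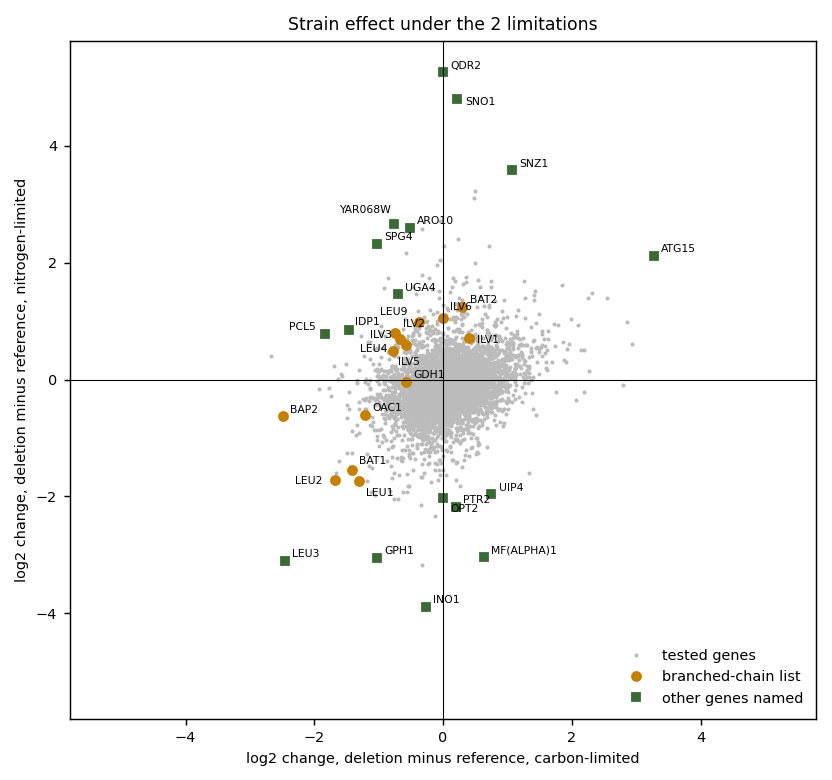
log2 change of every tested gene, deletion minus reference, under carbon limitation (horizontal axis) and nitrogen limitation (vertical axis), with the branched-chain list and other named genes marked. LEU1, LEU2 and BAT1 lie low on both axes, ILV2, ILV3, ILV5 and LEU4 lie above 0 on the vertical axis and below 0 on the horizontal axis, and QDR2, SNO1 and INO1 lie far from 0 on the vertical axis only.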

How the data were processed

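RNA from chemostat cultures was measured on 12 Affymetrix yeast arrays, of which 6 were nitrogen-limited and 3 belonged to each strain. The deposited intensity values were already summarised per probe set and scaled by the authors, and the 2% trimmed mean of each array lay between 150.1 and 150.14. The software for that step was not given in the sources used here. Of 9335 probe sets 6504 named 1 gene, 328 several and 2503 none in GEO's platform annotation. The brightest single-gene probe set stood for each of 5656 genes, all matched to RefSeq names, and 315 genes had several probe sets.

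From these values, intensities under 12 were set to 12, log2 was taken, and genes above 12 on at least 3 of 12 arrays (5321) were fitted with limma 3.58.1 (R 4.3.3), lmFit and eBayes, on all 12 arrays in 4 groups, with 8 residual degrees of freedom. Tests were two-sided, with Benjamini-Hochberg adjustment over 5321 genes. Where every array of a strain was at or under 12 the fold is a lower bound, written as at least. The procedure was tested on simulated data with independent noise, which held no shift of signal quality or scaling between the strains. With 3 arrays per group, the number of arrays limits the precision.

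Members and the 45 gene lists (864 genes, 811 tested) were chosen with earlier results of these data known. Named were LEU3 and the branched-chain list, the 20 largest changes each way without overlap, up to 5 passing members each way per list, up to 10 genes each way seen in 1 strain only, and other members that complete a step or family. Alternatives were the floor, the filter, the scaling, the probe set rule, the arrays fitted, the actin ratio, the bacterial control, a replicate block and each array left out. Promoter and protein sequences were not analysed here.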

Additional observations from a re-analysis of the deposited data

Results flagged for a closer look

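The strain effect differed between nitrogen and carbon limitation for 976 genes by the interaction term of the limma fit, or 417 with the actin ratio as a term. Of the genes named in the report, 19 passed in opposite directions under the limitations and differed in that test, and their differences (nitrogen minus carbon effect, log2) follow. Those higher under nitrogen limitation and lower under carbon limitation included YAR068W (3.44), SPG4 (3.34), ARO10 (3.12), ATG41 (2.74), PCL5 (2.61), IDP1 (2.30) and UGA4 (2.15). The branched-chain genes ILV2 (1.54), LEU4 (1.36), ILV5 (1.27) and ILV3 (1.17) did the same, as did LYS5 (1.24) of lysine metabolism. Those lower under nitrogen limitation and higher under carbon limitation were MF(ALPHA)1 (-3.68), UIP4 (-2.71), CLB3 (-1.61), THI6 (-1.30), URA8 (-1.23), GAP1 (-1.08) and ACO1 (-1.06). The nitrogen-limited calls of some ended when 1 array was left out: LYS5 (0.61) without deletion array 2 (0.47) or reference array 1 (0.54), THI6 (-0.67) without deletion array 3 (-0.50) or reference array 3 (-0.60), and ACO1 (-0.53) without deletion array 2 (-0.48) or reference array 1 (-0.40) and after median centring (-0.39). ILV5 and GAP1 kept theirs without 1 array only, as given in the report.

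A bacterial control transcript outside the comparison, ThrX, read 3095 on reference array 2 and 2748 on reference array 3 and at most 0.5 on the other 4 nitrogen-limited arrays. Its part in the strain differences was not tested beyond leaving those arrays out.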

How the results depend on the processing

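Of 252 named genes that passed, 154 kept their call under every alternative that tested them and 98 lost it under at least 1, most often (68) when the arrays with the bacterial control were left out. Median centring gave 538 genes higher and 485 lower, and quantile normalization 484 higher. Leaving out the arrays with the bacterial control, which leaves reference array 1 alone and assumes that it varies like the other groups, gave 715 genes passing, 205 higher and 510 lower, and 504 between the limitations. There 4 of 17 threonine group genes, 4 of 15 branched-chain genes and 4 of 23 sulfur genes rose, and 2 of 17 phosphate, 2 of 25 metal, 3 of 24 peroxisomal and 6 of 24 pheromone genes fell. The actin ratio as a term gave 417 genes between the limitations. Leaving out each array in turn gave 793 to 1084 genes passing, 215 to 289 higher and 551 to 795 lower, and 653 to 941 between the limitations. The mean of the probe sets turned FAS1 to 0.52 and FAS2 to 0.50. The cause of these shifts was not tested. Same-numbered arrays of the strains did not deviate together (correlations of deviations -0.038, -0.066 and -0.127). The labels do not say whether same-numbered arrays were handled together, and these correlations cannot show it. With a replicate block 1043 genes passed, 283 higher and 760 lower, with 857 between the limitations.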

Other observations

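Among adjacent tested genes, both changing at least 2-fold the same way in the nitrogen-limited deletion strain, were HIS7 and ARO4 on chromosome II, CPP3 (1.74) and ARO3 on IV, YAH1 (1.17) and ATG41 on XVI, and MF(ALPHA)1 and UIP4 on XVI, of which the last pair fell together.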
